A study of Mus musculus with 10 samples.

Results

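The response of neutrophils to anti-PDL1/CD40 agonist was followed in Sox2Hi squamous cell carcinomas, in 5 of the 10 libraries of the series, which were chosen by the graft and treatment in their labels. Every library is bulk RNA-seq of Tomato+ neutrophils isolated from a squamous cell carcinoma (SCC) grafted on CatchupIVM-red mice. In these mice the locus of Ly6g, a neutrophil surface gene, drives a Cre recombinase and a red fluorescent tdTomato. The grafts were SCC cells with high Sox2, a transcription factor of stem cells (Sox2Hi), or the parental Sox2low cells (control). Naive mice were left untreated, and treated mice received anti-PDL1/CD40 agonist after the tumours had formed. The Sox2Hi groups held 3 naive and 2 treated libraries, and the control groups, used here only to compare the response, held 3 naive and 2 treated. The question behind the design is whether a high level of Sox2 in a tumour alters the interferon response of its neutrophils. The sample descriptions name C57 for all 10 libraries and GFP for the control ones, without saying what carries the GFP. The labels give no dose, interval, age or sex, and do not say whether replicates were separate mice or pools. The p-values therefore measure the spread between these libraries, and not a known spread between mice. Reads of the Y-linked gene Ddx3y, given below, differed within both Sox2Hi groups, so the libraries of a group were not all repeats of the same sample.

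PD-L1 on tumour and myeloid cells restrains T cells through PD-1, and CD40, a receptor of the tumour necrosis factor family, activates antigen-presenting cells when it is engaged. Interferons from T cells, NK cells or myeloid cells signal through Janus kinases to STAT and IRF transcription factors. STAT dimers bind the gamma-activated site (GAS), and IRFs, alone or in complexes with STATs, bind the interferon-stimulated response element (ISRE). Guanylate-binding proteins and immunity-related GTPases, which attack vacuoles that hold microbes, are among the most inducible targets of interferon gamma.

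Promoter stretches of genes that rose are printed here because these elements were more frequent among genes that rose. They come from RefSeq windows that run from 250 bases before to 50 bases after a start site in GRCm38.p6. The ISRE core was searched as GAAA, any 2 bases and GAAA, or on the other strand TTTC, any 2 bases and TTTC. The GAS core is TTC, any 3 bases and GAA, which reads the same on both strands. Stretches are printed only for some genes that have a core wholly before the start. Among rises named below, Gbp8, Gbp10, Gbp4, Gbp6, Ly6i, Nlrc5 and Ccl5 had no window. Camp, Ngp, Wfdc18 and H2-Q6 had a window without such a core. Each stretch is written 5′ to 3′ on the strand of the gene, with the core in capitals.
Calhm6, chr10:34128002-34128061, minus strand, ISRE core 64 bases before the start: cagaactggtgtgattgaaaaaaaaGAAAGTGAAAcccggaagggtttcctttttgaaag
Ifi206, chr1:173491324-173491383, minus strand, ISRE core 40 bases before the start: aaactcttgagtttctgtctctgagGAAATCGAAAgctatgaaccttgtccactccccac
Gzma, chr13:113101044-113101103, minus strand, ISRE core 97 bases before the start: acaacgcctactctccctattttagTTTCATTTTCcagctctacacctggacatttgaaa
Gbp2, chr3:142620579-142620638, plus strand, ISRE core 59 bases before the start: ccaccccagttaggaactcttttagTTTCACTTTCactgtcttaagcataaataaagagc
B2m, chr2:122147523-122147582, plus strand, ISRE core 139 bases before the start: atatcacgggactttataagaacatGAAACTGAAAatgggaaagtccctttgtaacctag
Serpina3f, chr12:104214398-104214456, plus strand, GAS core 121 bases before the start: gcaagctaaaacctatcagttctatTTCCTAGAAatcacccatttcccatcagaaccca

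An ISRE core lay in the windows of 123 of the 1022 genes that rose and had a window (12%), against 221 of 6608 genes that were not called (3.34%) and 21 of 566 that fell (3.71%). Over all 27025 genes with a window the share was 3.99%. Among the 70 genes with a window that rose by at least 2 on the log2 scale it was 23 (32.9%). The GAS core, a looser pattern, was in 15 of those 70 windows (21.4%), in 12.2% of the windows of all genes that rose, and in 8.19% of those of genes not called. In 23 genes of the whole table the matches overlap. A match of letters is a description of the promoter and does not show that a factor binds there.

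The 5 Sox2Hi libraries held between 16019847 and 18267413 gene counts. Values below are CPM, a gene's counts as a share of the library's total on the usual per-million scale, corrected by TMM factors, and given in the order naive replicates 1, 2 and 3, then treated replicates 1 and 2. Fold changes are log2 of treated over naive with a standard error (SE) and a Benjamini-Hochberg adjusted p from edgeR's quasi-likelihood test over all genes tested, and a gene is called under 0.05. The SE was worked back from that test, as the size of the fold change over the square root of the test's F. Reads of the tdTomato transgene numbered 314, 223 and 192 in the naive and 443 and 232 in the treated libraries. Ly6g itself had 38, 39 and 63 naive and 162 and 85 treated reads, which makes 1.81, 2.08 and 3.08 CPM against 9.99 and 5.61 CPM (log2 fold change 1.75, SE 0.36, adjusted p = 0.01, and 1.27 with adjusted p = 0.074 without treated replicate 1). The 16 neutrophil markers, among them the calprotectin genes S100a8 and S100a9, summed to 4758 to 8334 CPM in naive and 13803 to 14263 CPM in treated libraries, above the sum of any other marker list. Reads of Ddx3y, a Y-linked gene, differed within both groups, with 6, 2814 and 1007 naive and 3980 and 7 treated reads. Olfactory and vomeronasal receptor genes, taken as silent here, held 0.498 to 0.523% of naive and 0.706 and 0.618% of treated counts, and the predicted gene Gm10800 held 4.24 to 5.49% and then 5.29 and 8.67%.

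Many genes changed with treatment in neutrophils from Sox2Hi tumours, and with the TMM factors used here more rose than fell. Of 11274 expressed genes (mean over the 10 libraries not under 5 CPM), 2433 were called (21.6%): 1692 rose (15.0%) and 741 fell (6.57%). At an unadjusted p under 0.05 there were 4457. The median change was 0.90 on the log2 scale among genes that rose and 0.87 in size among genes that fell. A rise of at least 2 was seen in 105 genes and of at least 3 in 27, while 27 genes fell by at least 2 and 14 by at least 3. Without a test, 37.0% of all genes had both treated libraries above every naive library, and 25.4% had both below. Of the called genes, 1691 of the 1692 that rose and 739 of the 741 that fell did not overlap between the groups. For a called gene, a lack of overlap therefore adds little. In bulk libraries fewer cells of a type and less RNA per cell cannot be told apart.

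The split between rises and falls depended on the scaling. On the same 11274 genes, 1382 rose and 1667 fell with DESeq2, 1045 and 1210 with RLE factors, and 670 and 2364 with library totals alone. With TMM factors from all 29648 genes that pass edgeR's own filter, which moves the median of the expressed genes from 0.09 to -0.18, 531 genes rose (1.79%) and 539 fell (1.82%), and 3.61% were called. Genes with higher expression rose more often: 36.4% of the 132 genes averaging 1000 CPM or more rose and 0.758% fell, against 11.7% and 5.15% of the 5886 genes between 5 and 20 CPM. Of 265 receptor genes taken as silent that reached 5 CPM, 135 rose and 1 fell, with a median of 0.70. Among 1016 long non-coding and other genes 375 rose and 16 fell, and among 280 pseudogenes 148 rose and 6 fell. Kept to 9180 genes with at least 5 times the reads that the silent-gene rate would give, a filter chosen after the data were seen, 1275 rose (13.9%) and 958 fell (10.4%). That fit computed its own TMM factors, and its median was -0.01. The 9180 genes held 1535 of the 1692 rises and 709 of the 741 falls called above. Among them were 357 of the 375 long non-coding and other genes that rose and 147 of the 148 pseudogenes. The part of the silent-gene background in the other counts was not tested. List counts below for a changed setting are to be read against counts over all genes in that setting, not against 15.0% and 6.57%. Leaving out a treated library leaves 1 in that group, so calls can end with the fold unchanged. Without treated replicate 2, 181 genes rose and 18 fell, and without naive replicate 3, 542 rose and 119 fell.

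**Figure D1:**
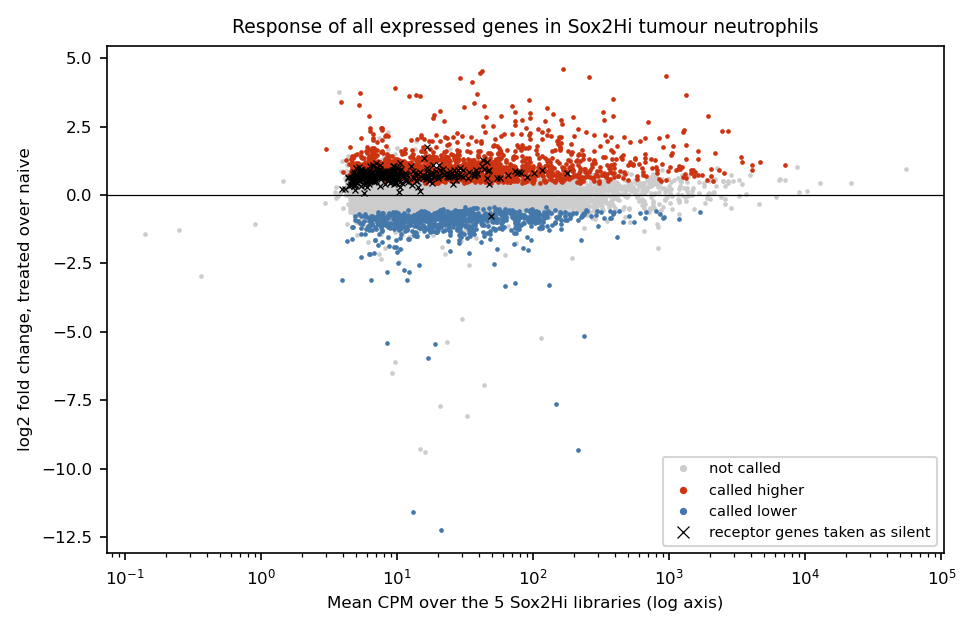
Log2 fold change of treated over naive against the mean CPM of the 5 Sox2Hi libraries (log axis) for the 11274 expressed genes. The 1692 genes that rose are red, the 741 that fell are blue, and crosses mark the 265 receptor genes taken as silent, which lie mostly above 0 with a median of 0.70.

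Rises and falls are named by size among called genes that averaged 10 CPM or more over the 5 libraries and did not overlap between the groups, with predicted genes and immunoglobulin segments left out. Guanylate-binding proteins on chromosome 5 led the rises. Gbp8 (ENSMUSG00000034438, chr5:105014150-105139540) went from 13.7, 19.0 and 14.4 CPM to 377 and 399 CPM, a log2 fold change of 4.63 (SE 0.26, adjusted p = 1.9e-05). Gbp10 was at 4.52, 5.34 and 2.89 CPM and then at 88.6 and 109 CPM (4.54, SE 0.28, adjusted p = 1.9e-05). Gbp4, whose gene overlaps Gbp8, was at 109, 127 and 86.3 CPM and then at 1894 and 2489 CPM (4.35, SE 0.29, adjusted p = 2.3e-05). In all 3 the treated libraries lay far above the highest naive library, and these similar genes may share reads.

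Genes of other families rose as steeply. Ly6i, a surface protein of the Ly6 family, was at 29.7, 38.0 and 22.1 CPM and then at 522 and 668 CPM (4.31, SE 0.31, adjusted p = 3.3e-05). Calhm6, of the calcium homeostasis modulator channels, was at 3.95, 4.32 and 2.01 CPM and then at 41.5 and 92.9 CPM (4.29, SE 0.45, adjusted p = 0.00039). Serpina3f, a protease inhibitor, was at 4.28, 6.08 and 3.57 CPM and then at 86.0 and 78.8 CPM (4.15, SE 0.26, adjusted p = 1.9e-05). The groups were far apart in all 3 genes, and treated replicate 2 was the higher of the treated libraries in Ly6i and Calhm6. Ifi206, of the p200 family of nucleic acid sensors, was at 8.33, 8.32 and 3.72 CPM and then at 102 and 73.0 CPM (3.68, SE 0.35, adjusted p = 0.00026). Camp, Ngp and Wfdc18 completed the 12 named rises with Gbp6 and Gzma, but their treated libraries were far apart. Ngp, a granule protein of immature neutrophils, was at 4.57, 48.4 and 2.84 CPM and then at 82.2 and 328 CPM. Without treated replicate 2 the changes were 2.09 for Camp (adjusted p = 0.23), 2.08 for Ngp (adjusted p = 0.29) and 1.54 for Wfdc18 (adjusted p = 0.26).

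The 12 named falls were led by globin genes and Cthrc1. The table's falls of at least 2 also held 8 immunoglobulin segments, which are not among them. Hba-a2, an alpha globin, went from 207, 129 and 273 CPM to 9.31 and 32.8 CPM (-3.27, SE 0.82, adjusted p = 0.021). Cthrc1, a secreted protein of matrix-producing cells (ENSMUSG00000054196, chr15:39076932-39087121), went from 15.3, 18.1 and 21.5 CPM to 2.84 and 1.39 CPM (-3.11, SE 0.41, adjusted p = 0.0014). Serpinh1, a collagen chaperone, went from 63.3, 69.2 and 98.7 CPM to 20.8 and 5.74 CPM (-2.53, SE 0.64, adjusted p = 0.022). The groups did not overlap in any of the 3, as their choice required, and the matrix genes were lowest in treated replicate 2. Itm2a, Gap43, Krt27, Nrep and Ddah1 fell by 2.09 to 2.80. Klra4, the NK cell receptor Ly49D, went from 13.5, 28.6 and 23.2 CPM to 4.19 and 3.17 CPM (-2.56, SE 0.35, adjusted p = 0.0015). Ccr3, the eotaxin receptor of eosinophils, went from 27.8, 48.8 and 28.9 CPM to 5.80 and 11.4 CPM (-2.04, SE 0.38, adjusted p = 0.0067). Of the 12, Cthrc1, Klra4 and Ccr3 kept their call without treated replicate 2, and the other 9 did not, with adjusted p between 0.086 and 0.23. The changes of the globins were then larger, -3.80 for Hba-a1, -4.50 for Hba-a2 and -4.09 for Hbb-bs, Itm2a and Gap43 had -2.74 and -2.79, and the other 4 had -1.51 to -2.24.

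**Figure D2:**
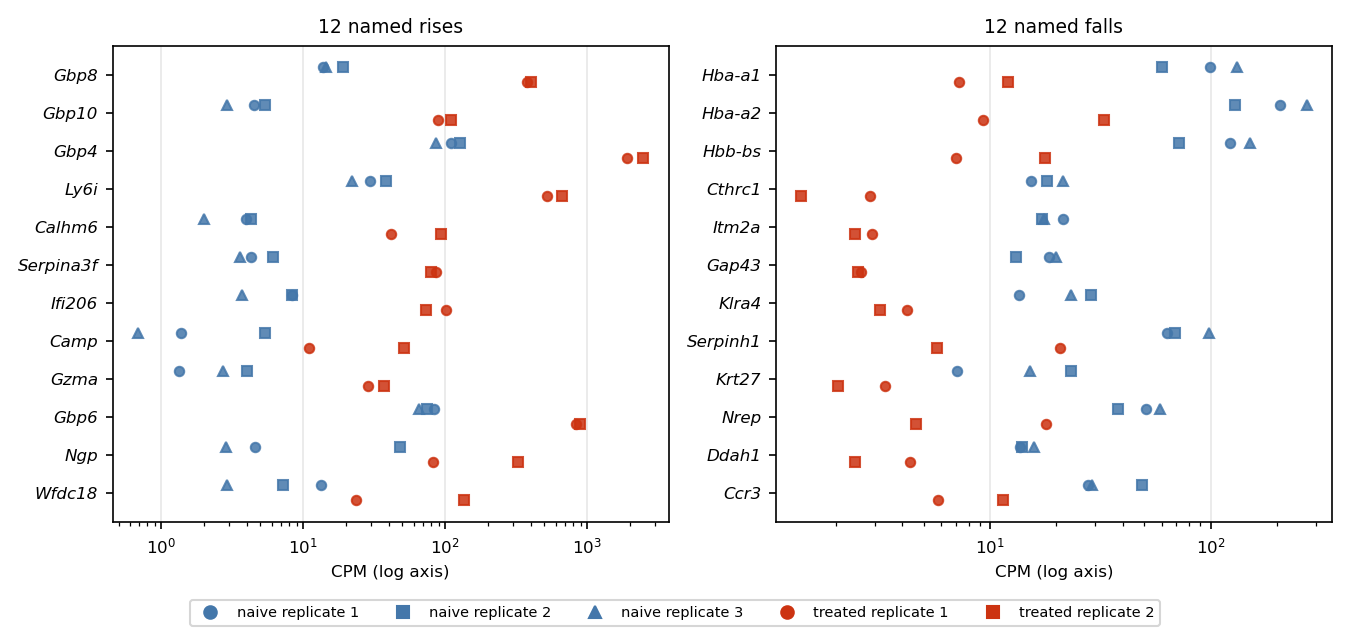
CPM (log axis) of the 12 named rises and 12 named falls, the largest among called genes averaging 10 CPM or more with no overlap, predicted genes and immunoglobulin segments left out, in each of the 3 naive (blue) and 2 treated (red) Sox2Hi libraries. No gene overlaps between the groups, as their choice required, and Camp, Ngp and Wfdc18 show the widest spread between the treated libraries.

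The guanylate-binding proteins and immunity-related GTPases rose together. All 18 tested members of 19 rose, where 15.0% of all genes did, with a median log2 fold change of 2.36 against 0.09 over all genes. Gbp2 was at 1001, 1284 and 782 CPM and then at 3947 and 6484 CPM (2.35, SE 0.32, adjusted p = 0.0014). Among the immunity-related GTPases Irgm1, a regulator of the family, went from 396, 399 and 299 CPM to 1393 and 1747 CPM (2.11, SE 0.22, adjusted p = 0.0004). Tgtp1 went from 469, 707 and 439 CPM to 4175 and 3889 CPM (2.90, SE 0.29, adjusted p = 0.00034), and its near copy Tgtp2 rose by 2.31. The same number rose without naive replicate 3, without either treated library and with the all-gene scaling.

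Many of the steep rises lay side by side in the genome. Of the 105 genes that rose by at least 2, 58 (55.2%) had another such gene within 500 kb. No share for an equal number of other genes was computed. In GENCODE M21 coordinates (GRCm38) Gbp8, Gbp9, Gbp4, Gbp10 and Gbp6 lie between positions 105014150 and 105293698 of chromosome 5, and Gbp7, Gm43802, Gbp2b and Gbp2 between 142530342 and 142638008 of chromosome 3. Irgm1, Gm12185, Tgtp1, Tgtp2 and Ifi47 span 48861968 to 49096974 of chromosome 11. Gvin1, a very large interferon-inducible GTPase, rose with 5 predicted neighbours between 105895139 and 106604035 of chromosome 7. The stefin A genes Stfa1, Stfa2 and Stfa2l1 with BC100530 and 2 other genes form a group of 6 between 36156811 and 36408457 of chromosome 16. Ccl5 with the WAP-domain genes Wfdc17, Wfdc18 and Wfdc21 lies between 83525778 and 83752642 of chromosome 11. Where members of a group are close copies, reads may be divided among them.

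Antiviral effectors, which block steps of viral replication, rose in 33 of 36 tested members of 38, where 15.0% of all genes did, with a median of 1.48 against 0.09. Ifit2, which binds viral RNA, was at 89.3, 90.5 and 53.7 CPM and then at 446 and 394 CPM (2.43, SE 0.28, adjusted p = 0.00062). Rsad2, or viperin, was at 208, 178 and 95.7 CPM and then at 571 and 824 CPM (2.12, SE 0.31, adjusted p = 0.002). Samhd1, which hydrolyses deoxynucleotides, was at 643, 714 and 431 CPM and then at 1459 and 2027 CPM (1.55, SE 0.29, adjusted p = 0.0069). Each was higher in both treated libraries than in any naive library. The members not called were Ifit3b at 0.71 (SE 0.32, adjusted p = 0.12), Mx1 at 0.67 (SE 0.24, adjusted p = 0.064) and Oas2 at 1.04 (SE 0.36, adjusted p = 0.061). Without treated replicate 2, 15 members rose, with a median of 1.38, and Samhd1 had an adjusted p of 0.11.

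Within the interferon signalling chain, members that rose included nuclear factors, the receptor subunit Ifnar2 and the kinase Tyk2. Of 19 tested members of 20, 11 rose, against 15.0% of all genes, with a median of 0.76. The receptor subunit Ifnar1 was at 51.5, 47.4 and 41.3 CPM and then at 51.8 and 66.1 CPM (0.33, SE 0.19, adjusted p = 0.22), and the interferon gamma receptor subunit Ifngr1 had 0.64 (SE 0.25, adjusted p = 0.083). Jak1 had 0.27 (SE 0.18, adjusted p = 0.26) and Jak2 0.28 (SE 0.19, adjusted p = 0.29). Irf1, a transcription factor that interferon gamma induces, went from 67.9, 68.1 and 47.9 CPM to 179.7 and 168 CPM (1.50, SE 0.25, adjusted p = 0.0045). Nlrc5, the transactivator of class I genes, went from 19.0, 19.7 and 15.9 CPM to 51.3 and 58.9 CPM (1.60, SE 0.16, adjusted p = 0.00032). Other rises were Ifnar2, Tyk2, Stat2, Irf2, Irf5, Irf7, Irf8 and Irf9, between 0.59 and 1.46. With the all-gene scaling 5 rose. Without treated replicate 2 only Nlrc5 of the list kept its call, with a list median of 0.47.

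Class I antigen presentation rose at most steps, from peptide generation to the cell surface. Of 21 members, 18 rose, against 15.0% of all genes, with a median of 1.15. The immunoproteasome subunit Psmb9 went from 55.9, 63.4 and 50.6 CPM to 170.4 and 189 CPM (1.67, SE 0.17, adjusted p = 0.00034). The peptide transporter Tap1 went from 34.2, 40.5 and 32.9 CPM to 88.4 and 94.7 CPM (1.35, SE 0.22, adjusted p = 0.0039). B2m, the light chain of class I molecules, went from 3099, 3337 and 2676 CPM to 6153 and 7997 CPM (1.22, SE 0.20, adjusted p = 0.0037). These steps, none of which overlapped between the groups, serve all class I molecules. H2-Q6, a non-classical heavy chain, had the largest rise of the list, from 26.1, 29.3 and 18.6 CPM to 218 and 181 CPM (3.01, SE 0.22, adjusted p = 3.3e-05), and similar heavy chain genes may share its reads. The 3 members not called were Erap1 at 0.39, and the endoplasmic reticulum chaperones Calr at -0.30 and Pdia3 at -0.50. With treated replicate 2 left out, 8 members rose, with a median of 1.05, and B2m had 0.96 with adjusted p = 0.069.

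Among class II genes, which belong to antigen-presenting cells, Cd74 and H2-Ab1 were high in a single treated library. Cd74, the invariant chain, was at 5859, 7666 and 4976 CPM and then at 7424 and 17742 CPM (1.03, SE 0.35, adjusted p = 0.055). H2-Ab1 was at 1513, 1948 and 1318 CPM and then at 1768 and 4623 CPM (1.00, SE 0.34, adjusted p = 0.056). In both, treated replicate 1 lay within the naive range and treated replicate 2 above it. Of 10 tested members of 11, H2-DMa, Ctss and Ifi30 rose, by 1.21, 1.31 and 1.40, where 15.0% of all genes rose. The median was 0.96, but 0.08 without treated replicate 2, when none rose, and 1.49 without treated replicate 1, when 8 rose. The summed macrophage markers were at 978 to 1345 CPM in naive libraries, 638 CPM in treated replicate 1 and 1368 CPM in treated replicate 2, and those of dendritic cells at 21.7 to 52.6 CPM and then 24.1 and 27.7 CPM. Of 13 tested macrophage genes of 15 only Csf1r rose. The part of these cells in the class II values was not tested.

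Both targets of the treatment were expressed, and both rose. Cd274, the gene of PD-L1 (ENSMUSG00000016496, chr19:29367455-29388095), went from 232, 206 and 156 CPM to 779 and 936 CPM (2.12, SE 0.22, adjusted p = 0.00039). Cd40 (ENSMUSG00000017652, chr2:165055627-165072948) went from 10.3, 9.87 and 7.44 CPM to 22.3 and 37.8 CPM (1.70, SE 0.24, adjusted p = 0.0017). Neither overlapped between the groups, and both kept their call without each Sox2Hi library. Of 16 tested checkpoint ligands and costimulators of 22, 5 rose (15.0% of all genes), the others being the second PD-1 ligand Pdcd1lg2 (1.01), the death receptor Fas (1.56) and Ido1. Without treated replicate 2 only Cd274 and Cd40 of the list were called, and with the all-gene scaling 3 members were. Ido1, which degrades tryptophan, was at 38.3, 16.2 and 15.1 CPM and then at 57.2 and 244 CPM (2.70, SE 0.63, adjusted p = 0.017), and had 1.24 with adjusted p = 0.27 without treated replicate 2. Cd86, a ligand of CD28, was at 131, 118 and 100.1 CPM and then at 119 and 467 CPM (1.33, SE 0.45, adjusted p = 0.054). Cd47, the signal that restrains phagocytes, had 0.23 (SE 0.14, adjusted p = 0.25), and the list's median was 0.46.

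Among chemokines of the interferon-induced and T cell list, Cxcl9, Cxcl10 and Ccl5 rose. Cxcl9 went from 41.2, 45.0 and 31.8 CPM to 128 and 296 CPM (2.43, SE 0.33, adjusted p = 0.0014). Cxcl10 went from 18.7, 19.4 and 11.3 CPM to 99.2 and 144 CPM (2.89, SE 0.27, adjusted p = 0.00026). Ccl5 went from 32.7, 51.2 and 28.2 CPM to 147 and 439 CPM (2.97, SE 0.44, adjusted p = 0.0024). These were 3 of 6 tested members of 9 (15.0% of all genes rose), and 3 also rose without naive replicate 3 or without treated replicate 2. Cxcl9 and Ccl5 were higher in treated replicate 2 than in treated replicate 1. Among CC chemokines and myeloid receptors 6 of 12 tested members of 14 rose, with a median of 0.74, and none without treated replicate 2, with a median of 0.35. Ccr2, the receptor of Ccl2, was at 33.1, 51.9 and 32.5 CPM and then at 65.2 and 202 CPM (1.77, SE 0.49, adjusted p = 0.028). Of 13 tested neutrophil chemokines and receptors of 15, the formyl peptide receptors Fpr1 and Fpr2 rose, by 1.24 and 1.26, a share near the 15.0% of all genes. Without treated replicate 2 they had 1.30 and 1.09 (adjusted p = 0.074 and 0.093). Cxcl2, a ligand of CXCR2, was at 2563, 1986 and 1767 CPM and then at 2806 and 3251 CPM (0.52, SE 0.23, adjusted p = 0.11). Cxcr2 itself had 0.74 (SE 0.29, adjusted p = 0.087).

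Of the interleukin-1 family and inflammasome genes, 10 of 17 tested members of 18 rose, where 15.0% of all genes did, with a median of 0.96. Casp4, the caspase of the non-canonical inflammasome, went from 101, 87.2 and 67.3 CPM to 241 and 291 CPM (1.64, SE 0.19, adjusted p = 0.00074). Il18bp, a soluble inhibitor of interleukin 18, went from 45.5, 53.7 and 35.6 CPM to 205 and 245 CPM (2.32, SE 0.23, adjusted p = 0.0003). Il1b went from 2180.5, 1693 and 1248 CPM to 3679 and 2786 CPM (0.92, SE 0.27, adjusted p = 0.035). Its treated values were above all naive ones by a smaller margin than those of Il18bp. Il1r2, a decoy receptor of tumour neutrophils, was at 10902, 10574 and 8181 CPM and then at 11030 and 11070.3 CPM (0.16, SE 0.26, adjusted p = 0.67). When treated replicate 2 was left out 4 members rose, with a median of 0.85, and with the all-gene scaling 5 did.

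NF-kB, which CD40 activates, was read through its subunits and feedback genes. Of 21 tested members of 22, 10 rose, where 15.0% of all genes did, with a median of 0.69. Traf1, an adaptor of CD40 and related receptors, went from 56.2, 49.5 and 44.2 CPM to 119 and 147 CPM (1.42, SE 0.19, adjusted p = 0.0014). Nfkbia, the main inhibitor of NF-kB and its early target, was at 1766, 1324 and 1176 CPM and then at 1703 and 2297 CPM (0.49, SE 0.22, adjusted p = 0.12). Tnf was at 103, 70.7 and 50.1 CPM and then at 77.0 and 64.2 CPM (-0.08, SE 0.29, adjusted p = 0.85), with full overlap of the groups. Traf1 alone kept its call without treated replicate 2, and 4 members did with the all-gene scaling. Among Toll-like receptors and adaptors 6 of 17 tested members of 23 rose, where 15.0% of all genes did, led by Tlr1 at 1.85 (SE 0.22, adjusted p = 0.00074). A single member did without treated replicate 2, and the median went from 0.67 to 0.49.

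Many transcripts of mature neutrophils and of their granules rose. S100a8, which forms calprotectin with S100a9, went from 1717, 1114 and 885 CPM to 3709.8 and 3466 CPM (1.53, SE 0.29, adjusted p = 0.0078), and S100a9 rose by 1.61 (SE 0.28, adjusted p = 0.0051). Retnlg, a resistin-like protein of mature neutrophils, went from 190.2, 194 and 101 CPM to 599.6 and 668 CPM (1.97, SE 0.37, adjusted p = 0.0074). Stfa2, a cysteine protease inhibitor, went from 1.76, 1.01 and 0.685 CPM to 10.9 and 11.9 CPM (3.29, SE 0.34, adjusted p = 0.00039). The groups were apart in each of these. Of 30 tested mature neutrophil transcripts of 31, 19 rose, against 15.0% of all genes, with a median of 0.97. Csf3r, the receptor of G-CSF, was at 158, 124 and 98.7 CPM and then at 189 and 175 CPM (0.52, SE 0.27, adjusted p = 0.17). With treated replicate 2 left out 7 rose, with a median of 0.87, and S100a8 had an adjusted p of 0.078. The summed markers of fibroblasts and red cells moved the other way, as given below, and their part in these rises was not tested.

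Granule genes, made during neutrophil development, rose in 11 of 17 tested members of 23, against 15.0% of all genes, with a median of 1.26. Mpo, Elane, Prtn3, Ctsg, Mmp25 and Bpi were not among the expressed genes and were not tested. Ltf, lactoferrin of the specific granules, went from 31.5, 32.2 and 28.3 CPM to 75.5 and 71.1 CPM (1.26, SE 0.21, adjusted p = 0.0048). Lyz2, lysozyme, went from 790.2, 586 and 599 CPM to 1527 and 3157 CPM (1.83, SE 0.33, adjusted p = 0.0061). Mmp9, a gelatinase granule protease, had 0.65 (SE 0.25, adjusted p = 0.081). Treated replicate 2 was the higher of the treated libraries for Lyz2 but not for Ltf. Without it 2 granule genes rose, with a median of 1.15, and Lyz2 had 1.15 with adjusted p = 0.12. Of the 6 tested NADPH oxidase genes of 7, which make superoxide, Cybb, Cyba, Ncf1 and Ncf4 rose by 0.87 to 1.81. Cybb, the catalytic subunit, was at 247, 216 and 157 CPM and then at 444 and 1009.9 CPM, and no oxidase gene was called without treated replicate 2, when the list's median went from 1.04 to 0.81.

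Of 33 tested members of 34 in the tumour neutrophil list, 6 rose and 1 fell, where 15.0% and 6.57% of all genes did, with a median of 0.28. None was called without treated replicate 2 (median 0.11), and 3 rose and none fell without naive replicate 3. Cd14, a co-receptor of TLR4, was at 7282, 5767 and 4979 CPM and then at 8512 and 8965 CPM (0.54, SE 0.24, adjusted p = 0.12). Hmox1, which degrades haem, was at 40.9, 20.6 and 28.0 CPM and then at 44.8 and 108 CPM (1.36, SE 0.34, adjusted p = 0.02), and had 0.53 with adjusted p = 0.33 without treated replicate 2. Cd63, a tetraspanin of granules and lysosomes, was the member that fell, from 1125, 952 and 1206 CPM to 634 and 602 CPM (-0.83, SE 0.18, adjusted p = 0.012, and adjusted p = 0.11 without treated replicate 2). The median was -0.03 with library totals alone. Among survival genes and CSF receptors Pim1, Csf1r and Cflar rose by 0.61 to 0.84, 3 of 16, a share near the 15.0% of all genes, and none did with the all-gene scaling. Of the 10 genes with the highest mean CPM, which is not a level per length, only Fth1, the ferritin heavy chain, was called, at 6082, 4800.3 and 3914 CPM and then 7799.7 and 13129 CPM (1.09, SE 0.29, adjusted p = 0.025, and adjusted p = 0.29 without treated replicate 2).

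Cell cycle and DNA replication genes fell. Of 36 tested members of 38, 27 fell, where 6.57% of all genes did, and 1 rose, with a median of -1.07. Top2a, which untangles chromosomes, went from 67.1, 75.6 and 86.3 CPM to 32.9 and 31.7 CPM (-1.24, SE 0.25, adjusted p = 0.0093). Mcm6, of the replicative helicase, went from 61.7, 75.0 and 81.7 CPM to 34.4 and 29.4 CPM (-1.19, SE 0.20, adjusted p = 0.0045). Ccna2, cyclin A, went from 8.76, 15.3 and 19.2 CPM to 5.24 and 4.36 CPM (-1.58, SE 0.38, adjusted p = 0.018). Both treated libraries were below every naive library in each. Hmgb2, a chromatin protein, rose from 111, 135 and 115 CPM to 167 and 177 CPM (0.51, SE 0.15, adjusted p = 0.032). Counts of falls were 20 with the all-gene scaling (1.82% of all genes) and 10 without naive replicate 3 (119 of all 11274 genes). None was called without treated replicate 2, when the median was -0.90. The summed markers of fibroblasts, red cells and B and plasma cells were also lower in both treated libraries, as given below, and the part of such cells in these falls was not tested.

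Matrix, globin and epithelial genes, which belong to cells other than neutrophils, fell or did not pass the test. Of 19 tested fibroblast and matrix genes of 22, 10 fell and none rose, where 6.57% of all genes fell, with a median of -1.10. Col1a1, the main chain of type I collagen, went from 138, 89.7 and 163 CPM to 47.1 and 18.1 CPM (-2.00, SE 0.57, adjusted p = 0.033). Sparc, a collagen-binding protein, went from 521, 489.5 and 672 CPM to 287 and 105 CPM (-1.52, SE 0.46, adjusted p = 0.04). Treated replicate 2 was the lowest library for both. The 6 fibroblast markers summed to 464 to 661 CPM in naive libraries and to 322 and 99.9 CPM in treated ones. A single matrix gene was called lower without naive replicate 3 (median -1.01), and also without treated replicate 2 (median -0.95).

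All 4 tested erythroid genes of 8 fell, where 6.57% of all genes did, with a median of -3.24. None was called without treated replicate 1 or without treated replicate 2, with medians of -2.81 and -3.94. The 3 erythroid markers summed to 132 to 284 CPM and then to 14.6 and 30.2 CPM. Of 19 tested keratinocyte genes of 24, Itga6 and Epcam fell, by 0.99 and 0.76, against 6.57% of all genes, and the median was 0.00. The 6 keratinocyte markers summed to 686 to 846 CPM in naive libraries and to 759.9 and 513 CPM in treated ones. Neither fall was called with the all-gene scaling or without either treated library.

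In the T and NK cell list Gzma, Nkg7 and Gzmb rose. Gzma, granzyme A, went from 1.33, 4.0 and 2.74 CPM to 28.5 and 37.3 CPM (3.62, SE 0.46, adjusted p = 0.001). Nkg7, a protein of cytotoxic granules, went from 9.14, 28.3 and 15.0 CPM to 125 and 75.6 CPM (2.52, SE 0.54, adjusted p = 0.012). With Gzmb at 1.33 (SE 0.43, adjusted p = 0.047), these were 3 of 11 tested members of 19, where 15.0% of all genes rose. The T cell receptor gene Trac was at 4.95, 29.8 and 9.45 CPM and then at 20.8 and 13.5 CPM (0.22, SE 0.68, adjusted p = 0.82), so naive replicate 2 was above both treated libraries. The 8 T and NK cell markers, Nkg7 among them, summed to 29.4 to 94.6 CPM and then to 202 and 126 CPM. The other 7 summed to 20.2, 66.3 and 27.3 CPM and then to 77.4 and 50.4 CPM, so that naive replicate 2 was above treated replicate 2. The part of these cells in the rises of Gzma and Ccl5 was not tested. Gzma alone of the list kept its call without treated replicate 2, when the median went from 1.33 to 1.39. The median was 0.79 with 1 call without treated replicate 1, and 0.99 with 1 call without naive replicate 3. The NK receptor Klra4 fell, as given above. The 5 B and plasma cell markers summed to 664 CPM in naive replicate 2, 143 and 167 CPM in the other naive libraries and 114 and 23.4 CPM in the treated ones, and no gene of that list was called. Of 37 immunoglobulin and T cell receptor segments tested, 8 fell, where 6.57% of all genes did, and none rose. Of 7 tested dendritic cell genes of 12, with a median of -0.58, the lectin Cd209a fell and none rose. It went from 9.23, 15.3 and 13.9 CPM to 0.925 and 2.71 CPM (-2.82, SE 0.64, adjusted p = 0.014). It had -2.24 without treated replicate 1 (adjusted p = 0.08) and -3.84 without treated replicate 2 (adjusted p = 0.064). Mast cell markers summed to 32.4 to 66.5 CPM and then to 46.7 and 24.0 CPM, endothelial markers to 24.2 to 30.7 CPM over all 5 libraries, and no gene of either list was called. No marker was at 0 in all 5 libraries.

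**Figure D3:**
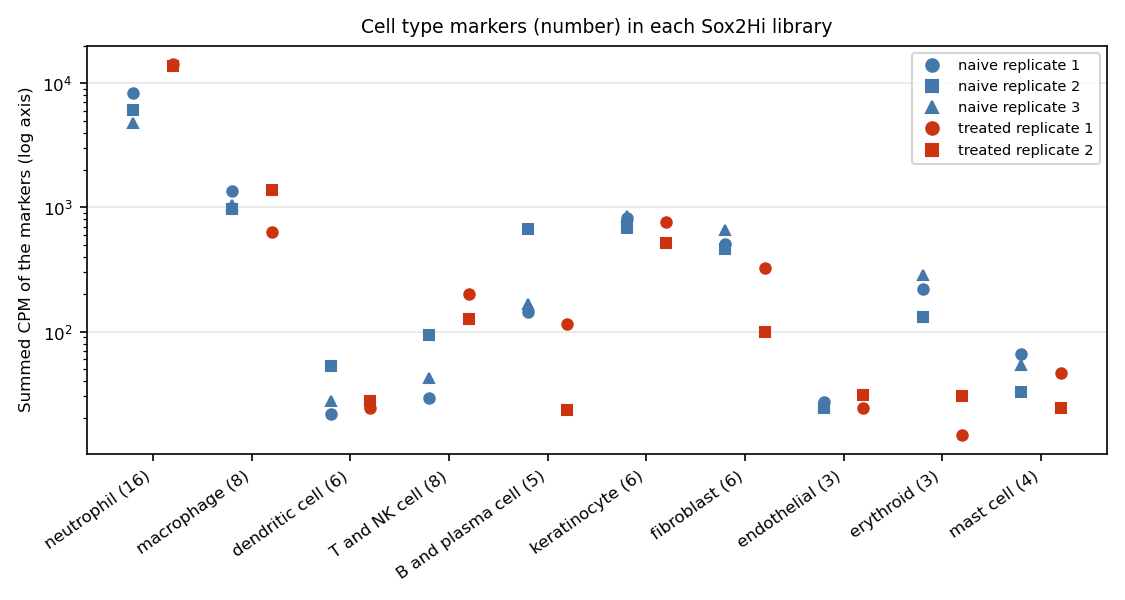
Summed CPM (log axis) of the markers of 10 cell types, with the number of markers in brackets, in each of the 5 Sox2Hi libraries. Neutrophil and T and NK cell sums are higher in both treated libraries (red) than in all naive libraries (blue), for T and NK cells only with Nkg7 included, and fibroblast and erythroid sums are lower.

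Of 27 tested glycolysis and hypoxia genes of 29, 9 rose, where 15.0% of all genes did, with a median of 0.44. Pfkfb3, which makes an activator of phosphofructokinase, went from 24.8, 16.1 and 16.9 CPM to 50.1 and 43.7 CPM (1.28, SE 0.20, adjusted p = 0.0034). Eno1, an enzyme of the pathway itself, did not pass the test, at 0.11 (SE 0.17, adjusted p = 0.64). With the all-gene scaling 3 rose, and Pfkfb3 alone did without treated replicate 2. Of 20 tested cholesterol genes of 22, 5 synthesis enzymes fell, Idi1, Fdps, Sqle, Cyp51 and Hsd17b7, by 0.86 to 1.32, where 6.57% of all genes fell. The exporters Abca1 and Abcg1 rose, and Abcg1 went from 533, 384 and 311 CPM to 877 and 916 CPM (1.13, SE 0.22, adjusted p = 0.0081). No enzyme fell without naive replicate 3, and none of the 7 calls held without treated replicate 2, when the median went from -0.22 to -0.39.

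Of 23 tested genes of the unfolded protein and integrated stress responses of 24, 2 rose and 5 fell, where 15.0% and 6.57% of all genes did, with a median of -0.31. The number that fell was 0 without naive replicate 3 (119 of all 11274 genes) and 14 with library totals alone (2364 of 11274). Pdia4, a disulfide isomerase of the endoplasmic reticulum, went from 53.9, 61.5 and 70.5 CPM to 35.1 and 29.2 CPM (-0.95, SE 0.22, adjusted p = 0.016). Ddit3, or CHOP, went from 76.3, 59.1 and 59.6 CPM to 144 and 121 CPM (1.03, SE 0.17, adjusted p = 0.0041). Edem1 was the other rise, and Hsp90b1, Canx, Pdia6 and Chac1 the other falls. Ddit3 alone was called without treated replicate 2. Of 32 tested lysosome and cathepsin genes of 33, Ctss, Ctsc, Ctsz and Npc2 rose and Cd63 fell, where 15.0% and 6.57% of all genes did, with a median of 0.34. Ctss, a cathepsin that cuts the invariant chain, went from 877, 900.5 and 704 CPM to 1587 and 2522 CPM (1.31, SE 0.25, adjusted p = 0.0074), and no lysosome gene was called without treated replicate 2.

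**Figure D4:**
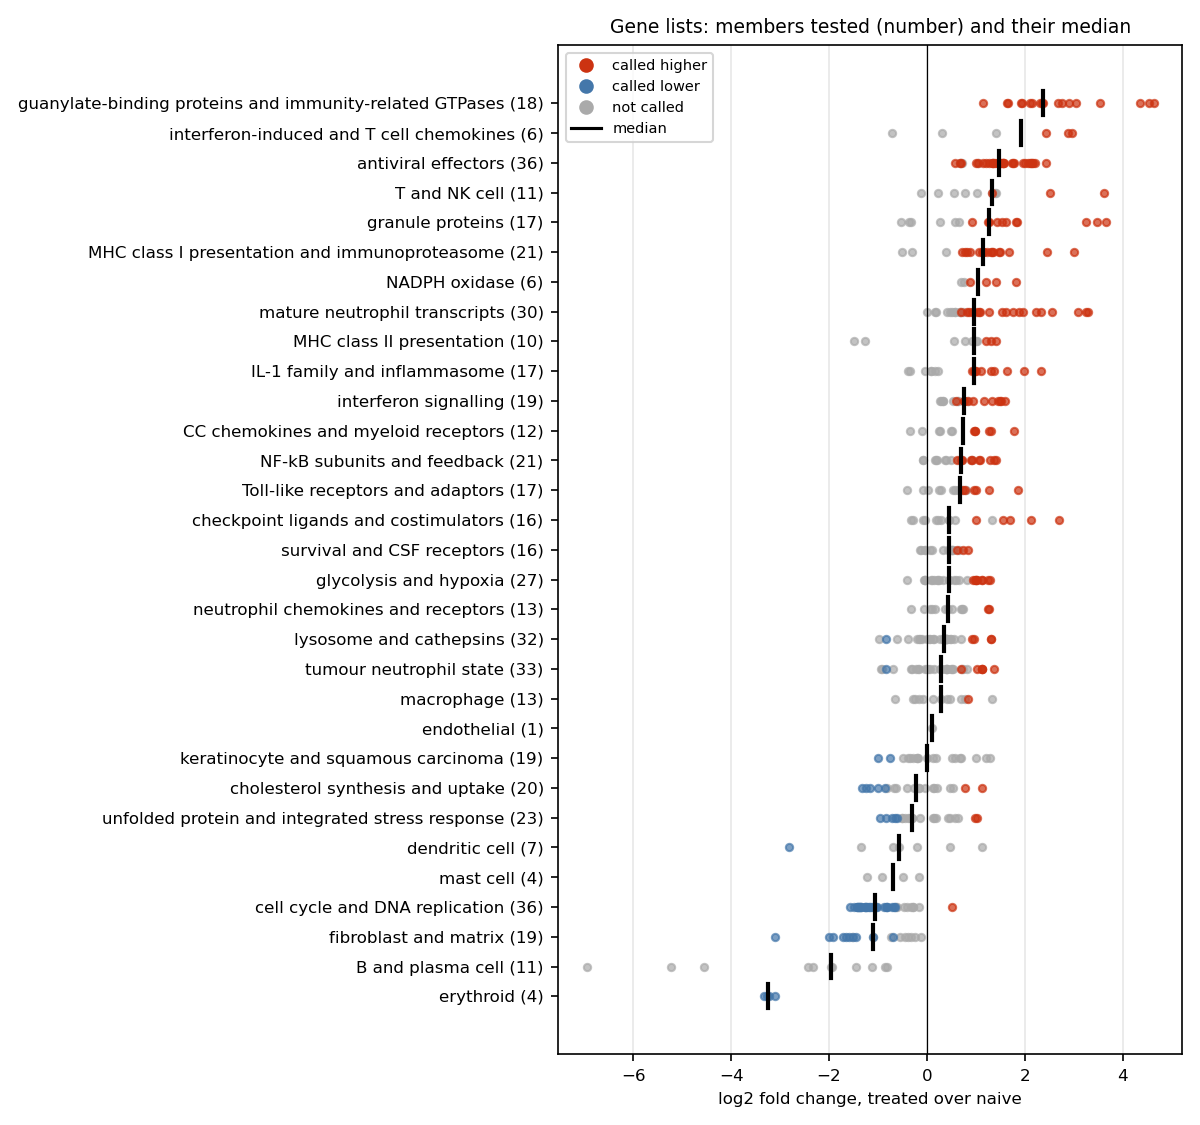
Log2 fold change of treated over naive for the tested members of each gene list (number in brackets), with the list's median as a black bar. All 18 guanylate-binding proteins and immunity-related GTPases are red, called higher, with a median of 2.36, and the medians of the cell cycle, matrix and erythroid lists lie left of 0.

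The response in Sox2Hi tumours was then set against that in control tumours, which uses other libraries, by the difference of the 2 responses (the interaction). More genes were called in control tumours, 6456 (57.3%), with 2720 higher (24.1%) and 3736 lower (33.1%). Of the 1692 genes that rose in Sox2Hi tumours, 929 also rose in control tumours (54.9% of these and 34.2% of the control rises), and 610 fell there. Of the 741 that fell, 579 also fell in control tumours (78.1% of these and 15.5% of the control falls), and none rose there. The difference itself was called for 2228 genes (19.8%), 1908 with the higher response in Sox2Hi tumours (16.9%) and 320 with the lower (2.84%). Of the receptor genes taken as silent, 243 of 265 had the higher response in Sox2Hi tumours, with a median of -1.21 in control tumours. Kept to genes well over the rate of silent genes, as above, 989 differences were higher and 328 lower. This balance depended on the scaling. The differences were 3343 higher and 4806 lower with the all-gene scaling, 1647 and 1708 with DESeq2, and 1498 and 1231 with RLE factors.

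No member of the lists of guanylate-binding proteins, antiviral effectors or interferon signalling was called for the difference in this fit. Their medians were 2.36, 1.48 and 0.76 in Sox2Hi and 2.73, 1.75 and 1.02 in control tumours. Cd274 rose by 2.12 and 2.60 (difference -0.48, SE 0.31, adjusted p = 0.32). A p that misses the threshold does not show that the responses are alike. With the all-gene scaling, which also tests more genes, 11 of 18, 20 of 36 and 11 of 19 members of the 3 lists had the lower response in Sox2Hi tumours. In that setting 16.2% of all genes had the lower response. With DESeq2 (15.1% of all genes) 2, 1 and 3 did, and with RLE factors on the same genes (10.9%) 1, 0 and 0. In the class I list H2-Q4 had the higher response in Sox2Hi tumours, by 1.95, and no member the lower. In the settings named above 17, 4 and 1 of 21 had the lower response, and with a minimum of 20 CPM no member was called.

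In the glycolysis and hypoxia list 10 of 27 members had the lower response, where 2.84% of all genes did, and the medians were 0.44 in Sox2Hi and 1.17 in control tumours. Ero1l, an oxidase of the endoplasmic reticulum induced by hypoxia, rose by 1.12 here, from 255, 153 and 148 CPM to 349.9 and 458 CPM, and by 2.58 in control tumours (difference -1.46, SE 0.36, adjusted p = 0.015). Ankrd37, a target of hypoxia-inducible factors, rose by 1.24 and 2.65 (difference -1.40, SE 0.40, adjusted p = 0.029). Of the 27 members, 24 had the lower response with the all-gene scaling (16.2% of all genes) and 16 with RLE factors (10.9%), but 3 without naive replicate 1, 1 when the minimum was raised to 20 CPM and none without treated replicate 1, when the median difference went from -0.74 to -0.68. Tumour neutrophil genes had the lower response in 7 of 33, with 2 without treated replicate 1, 12 without treated replicate 2 (6.70% of all genes) and 13 with RLE factors. Lysosome genes had it in 5 of 32, with 1, 14 and 16 in the same settings.

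Among genes called for both tests, Prlr, the prolactin receptor, had the largest difference, but its rise rested on treated replicate 2. It was at 5.09, 5.07 and 5.14 CPM and then at 8.02 and 70.6 CPM (2.94, SE 0.63, adjusted p = 0.012, and 0.59 with adjusted p = 0.33 without that library). Fpr1, a receptor of bacterial formyl peptides, went from 181, 119 and 100.4 CPM to 344 and 286 CPM, a rise of 1.24 against 2.60 in control tumours (difference -1.37, SE 0.35, adjusted p = 0.019). Ccr3 fell by 2.04 here and had -0.45 in control tumours (difference -1.59, SE 0.50, adjusted p = 0.045).

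**Figure D5:**
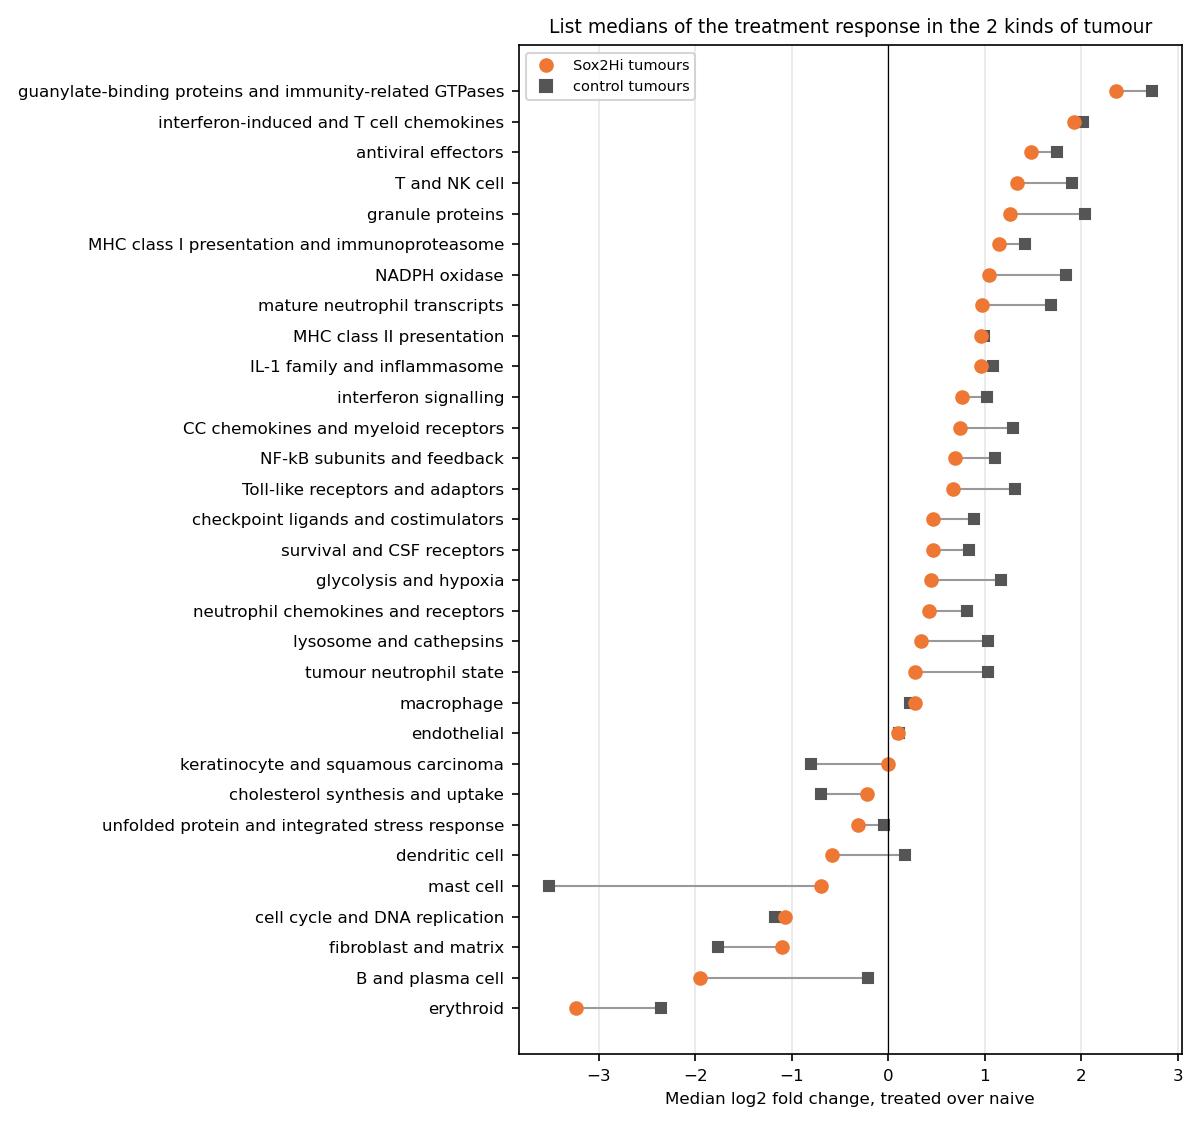
Median log2 fold change of treated over naive for each gene list in Sox2Hi tumours (orange circles) and control tumours (dark squares). Medians of the guanylate-binding protein list are 2.36 and 2.73, and those of glycolysis and hypoxia 0.44 and 1.17.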

How the data were processed

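RNA came from Tomato+ neutrophils of grafted tumours in 10 libraries, made with a low-input kit per the labels' protocols. The deposited values were whole-number counts per gene, which the submitters' processing notes tie only to kallisto 0.44.0 and mm10, so they may be rounded estimates. The annotation, the strand setting and the use of multi-mapped reads are not given in the sources used here.

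Of 55481 rows, 96 spike-in and transgene rows (0.000992 to 0.00277% of counts) were left out. Genes averaging 5 CPM or more over the 10 libraries gave the TMM factors, and edgeR 4.0.16 (R 4.3.3) fitted 4 groups with glmQLFit and glmQLFTest. The interaction was the Sox2Hi response minus the control response. limma 3.58.1 (voom) and DESeq2 1.42.0 were alternatives, and the fit was tested on simulated data.

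Named genes were the 12 largest rises and falls with a mean of at least 10 CPM and no overlap, the leading members of 31 lists, the 10 highest genes, the 5 largest differences each way, and 8 fixed genes. Other genes were named after their values were seen. The comparison and lists were chosen with earlier results of these data known. A gene of the interferon signalling list is counted in it but not reported here by name.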

Additional observations from a re-analysis of the deposited data

Results flagged for a closer look

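For 10 genes that were called both for the response in Sox2Hi tumours and for its difference from the response in control tumours (edgeR's quasi-likelihood test with Benjamini-Hochberg adjustment), the difference was among the 5 highest or 5 lowest. The difference was 4.22 on the log2 scale for Prlr (adjusted p = 0.0083), 1.73 without Sox2Hi treated replicate 2. It was 2.56 for Ranbp3l, which rose by 0.88 here and had -1.68 in control tumours. It was 2.55 for Olfr986, 2.55 for Olfr639 and 2.46 for Vmn1r61, 3 of the receptor genes taken as silent.

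Lower responses in Sox2Hi tumours were -1.59 for Ccr3, -1.54 for Klhdc4, -1.46 for Ero1l, -1.40 for Ankrd37 and -1.37 for Fpr1. The call was lost without treated replicate 1 for Ccr3, Ero1l and Ankrd37, without treated replicate 2 for Ankrd37, without naive replicate 2 for Ccr3, and with a mean of at least 20 CPM for Ccr3, Klhdc4, Ankrd37 and Fpr1.

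The tdTomato transgene, outside the gene measurement, had 443 reads in treated replicate 1 (27.3 CPM) and 232 in treated replicate 2 (15.3 CPM), against 9.40 to 14.9 CPM in the Sox2Hi naive libraries. In control tumours it was at 9.15 to 15.2 CPM in naive and at 22.4 and 29.6 CPM in treated libraries. Samples that stand apart within a group were not tested, since the groups hold 2 or 3 libraries.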

How the results depend on the processing

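The direction of the balance between rises and falls depended on the scaling and the filter. Genes that rose and fell in Sox2Hi tumours numbered 1692 and 741, against 1382 and 1667 with DESeq2, 1045 and 1210 with RLE factors, 531 and 539 (1070 called) with the all-gene scaling, and 670 and 2364 with library totals alone. The Sox2Hi libraries alone gave 1804 and 1600, limma-voom with quality weights 2477 and 1288 (3765 called), a mean of at least 20 CPM 855 and 795, and no filter 1440 and 486. A term for libraries with over 100 reads of Ddx3y gave 1409 and 555. Leaving out each library in turn gave 199 to 1916 calls, with 181 to 1320 higher and 18 to 596 lower, lowest without treated replicate 2. Leaving out a treated library leaves 1 sample in that group, which is assumed to vary like the others.

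For the difference between the responses, 2228 calls (1908 higher, 320 lower) became 3355 with DESeq2 (1647 and 1708), 2729 with RLE factors (1498 and 1231), 8149 with the all-gene scaling (3343 and 4806), 1317 over the silent-gene rate (989 and 328), and 397 with a mean of at least 20 CPM (356 and 41). Leaving out each Sox2Hi library gave 1542 to 2154 calls, with 1399 to 1703 higher and 68 to 755 lower. The control libraries were not left out in turn. Except where fewer genes or libraries entered, the cause of these changes was not tested.

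The labels do not say that replicate numbers pair the samples. With the replicate block by title number 1993 genes were called for the response and 2709 for the difference (2101 higher, 608 lower), and by description number 2919 for the response. Same-numbered libraries deviated from their group means with correlations of -0.28 and -0.0702 by title number.

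Of 75 named genes called, none reversed under any alternative run that tested it. Not every alternative tested all 75, and with a mean of at least 20 CPM 57 calls were kept and 1 was lost. Calls were lost for 49 without treated replicate 2, 26 without naive replicate 3, 19 with the all-gene scaling, 16 without treated replicate 1 and at most 8 in each other alternative. Genes that were not called changed sign as follows. With the all-gene scaling Cd47 had -0.04, Il1r2 -0.10, Pecam1 -0.16, Eno1 -0.16 and Actb -0.14. With library totals alone Cd47 had -0.12, Il1r2 -0.18, Pecam1 -0.27, Eno1 -0.24 and Actb -0.22. Hdc had 0.01 with the replicate block by description number, and Ddx3y -0.68 with limma-voom. Over left-out libraries Apoe ranged from -1.14 to 0.22, Tmem123 from -0.56 to 0.04, Pecam1 from -0.34 to 0.41, Eno1 from -0.02 to 0.19, and Ddx3y from -7.15 to 2.31.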

Other observations

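Alox15, a lipoxygenase chosen after its values were seen, went from 11.2, 23.4 and 10.1 CPM in naive to 4.19 and 3.37 CPM in treated Sox2Hi libraries (-1.98, edgeR's quasi-likelihood test, adjusted p = 0.01). Siglecf, a lectin chosen in the same way, had -0.93 (adjusted p = 0.09).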
